A study of Mus musculus with 20 samples.

Results

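The mRNAs of 10 proteins that build small nucleolar ribonucleoproteins (snoRNPs) were followed in mouse liver, out of 53028 genes in the deposited table. They were chosen by name and role, by a rule that uses no measured value, though with earlier results of these data known. They comprise the 4 core proteins of H/ACA snoRNPs (Dkc1, Nhp2, Nop10 and Gar1), the H/ACA assembly factor Naf1, the 4 core proteins of C/D snoRNPs (Fbl, Nop56, Nop58 and Snu13) and Nolc1, a chaperone that serves both classes. All 10 were found by symbol, and all 10 passed the filter on low counts (more than 0.5 CPM, the count scaled to the size of its library, in at least 4 libraries) in every comparison.

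Livers came from 10 wild-type male C57BL/6J mice on chow. Mice 1, 2, 3, 8 and 9 received a control LNA against GFP. LNAs are short antisense oligonucleotides with locked nucleic acids, which bind RNA tightly and resist nucleases. Mice 4, 6, 10, 11 and 12 received an LNA against SNORA73, which the sample labels write as Snora37. The study describes 3 intraperitoneal injections of 3 mg/kg on alternate days into mice aged 8 weeks, with livers taken 2 days after the last one. Its polysome methods name mice aged 10 weeks, and the labels do not settle which age applies. The labels also name no version of the SNORA73 LNA. For its further work in mice the study names SNORA73-2, which it describes as the more potent LNA. All mice of both groups are described as having received cycloheximide, which arrests ribosomes on mRNA, shortly before sacrifice. Each mouse is 1 replicate. Each liver gave 2 libraries, 1 of input RNA from the whole lysate (called total RNA here) and 1 of RNA from the polysome fractions of that lysate, which hold mRNAs carrying several ribosomes. There were therefore 5 mice per LNA and 20 libraries in all. The study's own tests left out 1 unnamed mouse per group, and all 10 mice are kept here.

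SnoRNPs guide the chemical modification and cleavage of ribosomal RNA in the nucleolus. In an H/ACA particle the guide RNA directs dyskerin, encoded by Dkc1, to turn a chosen uridine into pseudouridine, with Nhp2, Nop10 and Gar1 as its partners. Naf1 holds the particle during assembly and is replaced by Gar1 as it matures. In a C/D particle the methyltransferase fibrillarin, encoded by Fbl, methylates the ribose of a chosen nucleotide, Snu13 binds the kink-turn of the guide RNA, and Nop56 and Nop58 hold the complex together. Nolc1, also known as Nopp140, shuttles between nucleolus and Cajal bodies and binds snoRNPs of both classes. SNORA73, the RNA targeted here, is an H/ACA snoRNA that takes part in cleavage of the ribosomal RNA precursor, so 4 of these proteins form its particle. The question put to the data was whether the mRNAs of the snoRNP proteins differed with the SNORA73 LNA in total RNA or on polysomes. A further question was how the level of each on polysomes, relative to other mRNAs, compared with that in the lysate.

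Libraries of total RNA held 20005389 to 42023390 counts and polysome libraries 14852951 to 33824659, and the control libraries were deeper as a group (median 31996106 against 22543046 in total RNA). Naf1 had the fewest counts of the 10 genes, from 18 to 64 in the polysome libraries, while Nop10 had at least 1023 in every library. Hepatocyte markers dominated all libraries, with Alb at 19294 CPM or more. The 5 sinusoidal endothelial markers summed to 70.5 to 80.8 CPM in polysome RNA of control livers and to 86.9 to 98.4 CPM with the SNORA73 LNA without overlap, though none passed edgeR's adjusted threshold there; in total RNA the sums were 81.5 to 101 and 93.3 to 111 CPM, and Stab2 was called. The 5 proliferation markers summed on average to 5.03 CPM in control and 3.63 CPM in SNORA73 LNA livers in total RNA and to 5.73 and 4.24 CPM in polysome RNA, and none of the 4 tested was called. In whole liver RNA, fewer cells of a type and less RNA per cell cannot be told apart. The knockdown cannot be read from these libraries, which were made from polyadenylated RNA: Snora73a and Snora73b had at most 2 and 4 counts in any library. No 2 libraries held identical values.

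The upstream bases of 5 of the genes are shown, 4 of them because their mRNAs varied together from mouse to mouse. Dkc1 is shown because its LNA difference in polysome RNA was the largest of the 10. In total RNA the log2 fold change of Nop58 (0.37) was larger than that of Dkc1 (0.22). Each run is the 200 bases before the annotated start of the gene, from RefSeq (GRCm38.p6), written 5′ to 3′ on the strand of the gene. The runs lie at chr2:130274167-130274366 on the plus strand for Nop56, chr1:59684761-59684960 on the plus strand for Nop58, chr19:46075647-46075846 on the plus strand for Nolc1, chr3:129831408-129831607 on the minus strand for Gar1 and chrX:75095654-75095853 on the plus strand for Dkc1. Capitals mark CCGGAA, the core letters of sites for ETS transcription factors, or its reverse complement TTCCGG.
Nop56: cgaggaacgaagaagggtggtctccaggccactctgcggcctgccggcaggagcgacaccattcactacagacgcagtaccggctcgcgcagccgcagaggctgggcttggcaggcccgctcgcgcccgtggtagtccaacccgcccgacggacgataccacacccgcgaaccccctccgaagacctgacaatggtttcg
Nop58: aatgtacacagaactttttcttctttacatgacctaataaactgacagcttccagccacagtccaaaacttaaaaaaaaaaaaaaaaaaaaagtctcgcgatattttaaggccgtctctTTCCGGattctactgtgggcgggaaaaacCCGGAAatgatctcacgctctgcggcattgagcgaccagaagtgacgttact
Nolc1: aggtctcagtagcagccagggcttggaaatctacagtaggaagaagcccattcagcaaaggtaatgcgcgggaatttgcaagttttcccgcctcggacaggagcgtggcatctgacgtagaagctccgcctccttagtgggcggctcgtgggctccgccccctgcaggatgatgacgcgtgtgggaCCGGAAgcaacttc
Gar1: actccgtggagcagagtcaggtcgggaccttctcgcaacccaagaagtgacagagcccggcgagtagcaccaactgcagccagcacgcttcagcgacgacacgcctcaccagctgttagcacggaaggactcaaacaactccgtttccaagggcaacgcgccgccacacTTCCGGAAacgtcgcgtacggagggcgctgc
Dkc1: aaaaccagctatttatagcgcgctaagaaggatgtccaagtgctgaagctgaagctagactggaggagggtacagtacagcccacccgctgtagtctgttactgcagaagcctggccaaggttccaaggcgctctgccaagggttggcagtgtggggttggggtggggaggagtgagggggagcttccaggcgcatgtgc

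In all, 5 motifs were searched on both strands and were chosen after these sequences had been seen: CCGGAA, the E-box CACGTG that Myc and related factors bind, the cAMP response element TGACGTCA, the CCAAT box (CCAAT) and the TATA box (TATAAA). Of the 8 snoRNP genes with a RefSeq promoter entry, 5 (Nop58, Gar1, Nhp2, Snu13 and Nolc1) held CCGGAA. The share was 9.8% among 21982 promoters of the same length and 19.5% among the 7170 of them that belong to genes tested here. Nop58 held 2 matches, at -81 and -52 from the start, and the 2 matches of Gar1, at -31 and -29, overlap each other. CACGTG was in none of the 8, against 4.99% of all promoters and 7.43% of those of genes tested, and TGACGTCA was also in none, against 1.42% and 2.51%. CCAAT was in 1 of the 8 (Nhp2), against 30.4% and 34.8%, and TATAAA in 1 (Dkc1), against 11.6% and 5.61%. Nop56, whose mRNA followed the mean of the other 9 most closely, had no match to CCGGAA in this window, and neither had Dkc1. These matches describe letters only. Fbl and Naf1 had no promoter entry.

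In total RNA, no snoRNP mRNA passed the test between the SNORA73 LNA and the control LNA. edgeR's quasi-likelihood test called 0 of the 10 at an adjusted p under 0.05, where it called 0.0303% of the 13195 genes tested, and limma-voom and DESeq2 also called 0. At an unadjusted p under 0.05 edgeR, limma-voom and DESeq2 each counted 2 of the 10, against 8.65% of all genes with edgeR. With edgeR this count was 0 without mouse 3, 4, 6 or 11, and 4 without mouse 12. It was also 0 without mice 9 and 10 together and when all 20 libraries shared 1 fit. The estimates leaned to higher values with the SNORA73 LNA: 8 of the 10 log2 fold changes lay above 0 with a median of 0.11 (4 of the 10 when libraries were scaled by their totals alone, which moved the median of all genes to -0.14), while 48.3% of all genes lay below 0 and the median over all genes was 0.01. The groups overlapped for each of the 10 genes, and among all genes 1.8% had groups that did not overlap.

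Among the H/ACA proteins in total RNA, the catalytic subunit had the highest estimate. Dkc1 (ENSMUSG00000031403, chrX:75095854-75109776) stood at 30.1, 35.3, 26.5, 31.5 and 33.2 CPM in control mice 1, 2, 3, 8 and 9 and at 40.3, 31.1, 33.0, 48.4 and 30.2 CPM in SNORA73 LNA mice 4, 6, 10, 11 and 12. Mice 11 and 4 were above every control, and the other 3 SNORA73 LNA mice lay inside the control range. The log2 fold change was 0.22 (SE 0.14, 95% interval -0.07 to 0.52, edgeR adjusted p = 0.712). Its partners differed less: Gar1 (ENSMUSG00000028010) had a log2 fold change of 0.14 (SE 0.16), Nhp2 (ENSMUSG00000001056) of 0.03 (SE 0.11) and Nop10 (ENSMUSG00000027133) of -0.001 (SE 0.09). For Nop10 the 95% interval, -0.20 to 0.20, allows at most a 1.15-fold difference in either direction, around means of 56.6 CPM (SD 5.61, n = 5) in control and 56.5 CPM (SD 3.41, n = 5) in SNORA73 LNA livers.

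Naf1, the assembly factor, had the only 95% interval that lay wholly below 0 in total RNA. Naf1 (ENSMUSG00000014907, chr8:66859943-66890564) was at 3.97, 4.54, 4.67, 4.49 and 5.46 CPM in control mice 1, 2, 3, 8 and 9 and at 3.56, 3.46, 4.07, 3.51 and 4.25 CPM in SNORA73 LNA mice 4, 6, 10, 11 and 12. Control mouse 1 lay below 2 of the SNORA73 LNA mice, so the groups overlapped. The log2 fold change was -0.29 (SE 0.12, 95% interval -0.56 to -0.02, unadjusted p = 0.0348, adjusted p = 0.525 by edgeR). Without mice 9 and 10 together its unadjusted p by edgeR was 0.0712.

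Of the C/D proteins in total RNA, the scaffold pair Nop56 and Nop58 had estimates above those of fibrillarin and Snu13. Nop56 (ENSMUSG00000027405, chr2:130274367-130279313) was at 15.6, 15.6, 15.2, 20.2 and 16.5 CPM in control mice 1, 2, 3, 8 and 9 and at 20.9, 20.6, 25.7, 20.8 and 15.0 CPM in SNORA73 LNA mice 4, 6, 10, 11 and 12. All SNORA73 LNA mice but mouse 12 exceeded the highest control, mouse 8, and mouse 12 was the lowest of all 10. The log2 fold change of Nop56 was 0.31 (SE 0.13, unadjusted p = 0.0391, edgeR adjusted p = 0.541). Without mice 9 and 10 together its unadjusted p by edgeR was 0.136.

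Nop58 (ENSMUSG00000026020, chr1:59684961-59711510) ranged more widely, with 29.7, 35.4, 27.0, 32.7 and 39.1 CPM in control mice 1, 2, 3, 8 and 9 and 33.7, 36.8, 64.0, 48.1 and 28.5 CPM in SNORA73 LNA mice 4, 6, 10, 11 and 12. Mice 10 and 11 stood above all controls, and mouse 12 lay below 4 of the 5. The log2 fold change was 0.37 (SE 0.20, edgeR adjusted p = 0.659), and it lay between 0.17 and 0.48 with each mouse left out in turn. Fbl (ENSMUSG00000046865) and Snu13 (ENSMUSG00000063480) had log2 fold changes of 0.08 (SE 0.09) and 0.06 (SE 0.08), with Fbl at 28.2 to 32.3 CPM in control and 27.4 to 35.3 CPM in SNORA73 LNA livers and Snu13 at 30.1 to 34.4 and 30.3 to 36.7 CPM. Nolc1 (ENSMUSG00000015176, chr19:46075847-46085543) stood at 24.9, 24.2, 21.3, 28.6 and 30.0 CPM in the same control mice and at 32.5, 29.5, 41.3, 32.8 and 22.5 CPM in the SNORA73 LNA mice, a log2 fold change of 0.30 (SE 0.15, edgeR adjusted p = 0.626). Its order of mice resembled that of Nop56, with mouse 10 highest and mouse 12 next to lowest.

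**Figure D1:**
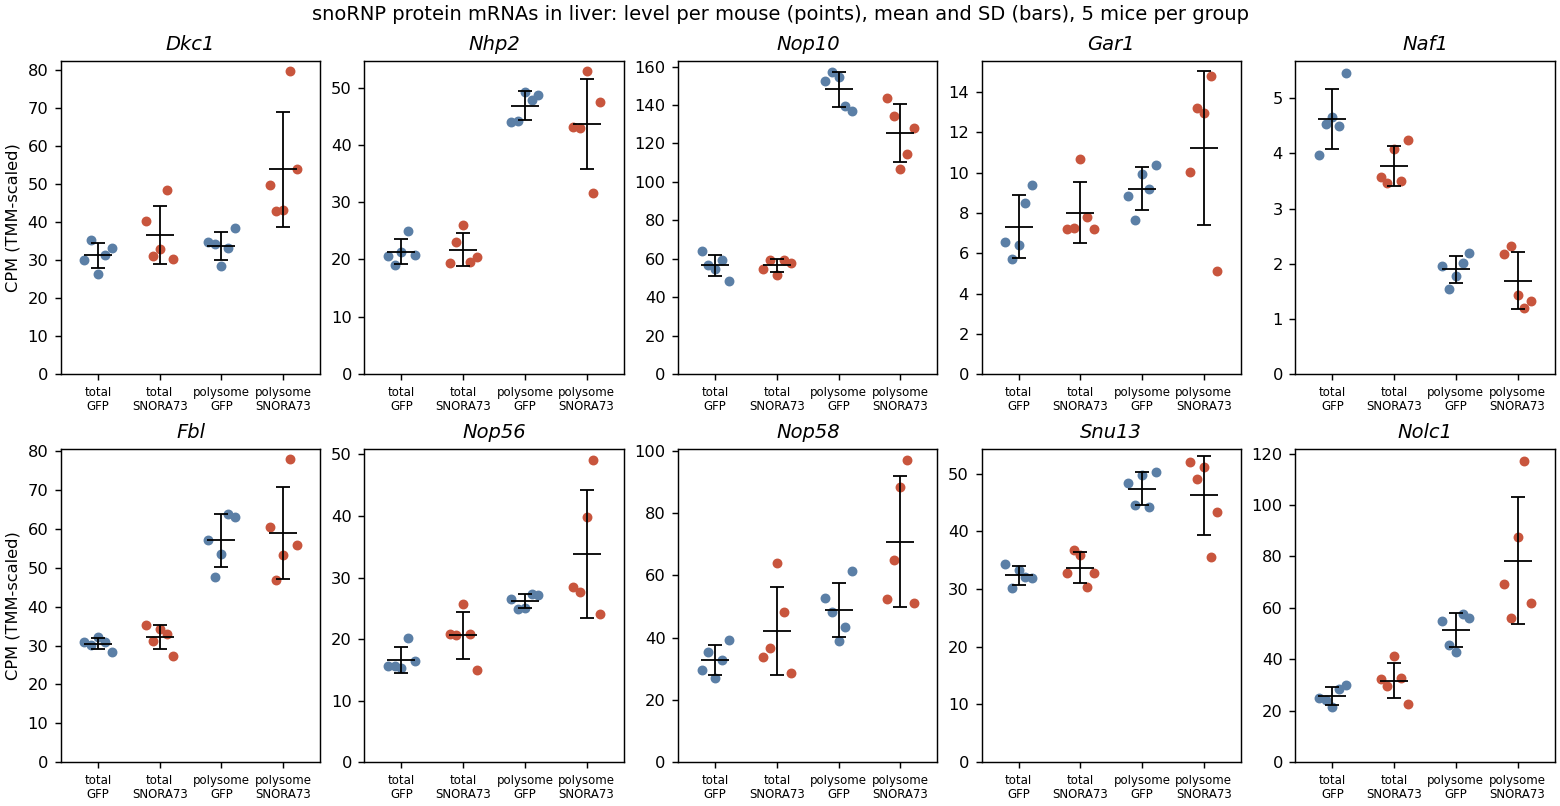
Level of the 10 snoRNP mRNAs in CPM after scaling by trimmed mean of M values (TMM), 1 panel per gene with its own axis from 0, and 1 point per mouse for total and polysome RNA of GFP LNA (blue) and SNORA73 LNA (red) livers. Bars are the mean and SD of 5 mice, and total and polysome libraries were scaled apart. Polysome Dkc1 of the 5 SNORA73 LNA mice lies above that of the 5 controls, and polysome Gar1 of mouse 12 lies far below the other SNORA73 LNA mice.

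On polysomes, Dkc1 had the largest difference of the 10 and the only groups that did not overlap. Dkc1 in polysome RNA stood at 34.8, 34.3, 28.4, 33.2 and 38.6 CPM in control mice 1, 2, 3, 8 and 9 and at 49.9, 42.9, 43.3, 79.8 and 54.1 CPM in SNORA73 LNA mice 4, 6, 10, 11 and 12. The lowest SNORA73 LNA mouse (42.9 CPM) lay above the highest control (38.6 CPM), and mouse 11 was far above the rest. Among all genes, 3.2% had polysome groups that did not overlap, and in 2.11% the SNORA73 LNA group was the higher. The log2 fold change of Dkc1 was 0.67 (SE 0.17, 95% interval 0.30 to 1.04), a 1.59-fold higher level.

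Adjusted over the 13060 genes tested, this difference did not pass the main test. edgeR called 0 of the 10 snoRNP mRNAs in polysome RNA, where it called 0.0153% of all genes, and the adjusted p of Dkc1 was 0.150 (unadjusted p = 0.0017). DESeq2 on the same 10 libraries called Dkc1 (log2 fold change 0.68, adjusted p = 0.0205), and so did edgeR when all 20 libraries shared 1 fit (0.67, adjusted p = 0.0325). Those settings also called more genes, 282 and 317 against 2, and limma-voom called none of the 10. Over the 10 fits that each omit 1 mouse, the estimate of Dkc1 stayed between 0.50 and 0.75 and its edgeR adjusted p between 0.104 and 0.393. At an unadjusted p under 0.05, edgeR and limma-voom counted 3 of the 10 and DESeq2 4, against 13.4% of all genes with edgeR.

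Nolc1 and Nop58 were the other mRNAs below an unadjusted p of 0.05 with edgeR on polysomes. Nolc1 stood at 54.7, 45.7, 43.0, 57.7 and 56.0 CPM in control mice 1, 2, 3, 8 and 9 and at 69.1, 56.2, 87.5, 116.9 and 62.0 CPM in SNORA73 LNA mice 4, 6, 10, 11 and 12. Only mouse 6 lay inside the control range. Nolc1 had a log2 fold change of 0.61 (SE 0.19, 95% interval 0.20 to 1.02, edgeR adjusted p = 0.218).

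Polysome Nop58 was at 52.7, 48.2, 38.9, 43.3 and 61.4 CPM in the controls, in the same order, and at 52.5, 65.0, 88.5, 97.0 and 51.2 CPM with the SNORA73 LNA, a log2 fold change of 0.54 (SE 0.20, edgeR adjusted p = 0.276). Mice 6, 10 and 11 exceeded all controls, and mice 4 and 12 did not. Nop56 followed with 0.37 (SE 0.18, edgeR adjusted p = 0.385), where mice 4, 6, 10 and 11, at 28.4, 27.6, 39.8 and 49.1 CPM, stood above a control range of 24.8 to 27.3 CPM and mouse 12, at 24.2 CPM, below it. Gar1 had 0.29 (SE 0.24) with the widest spread relative to its mean of the 10 genes in the SNORA73 LNA group (coefficient of variation 34%), from 5.12 CPM in mouse 12 to 14.8 CPM in mouse 11.

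Of the H/ACA partners of dyskerin, Nop10 and Nhp2 had polysome estimates below 0, both with 95% intervals that included 0, while Gar1 lay above 0. Nop10, which supports the catalytic fold of dyskerin, was at 152.6, 157.2, 154.5, 139.6 and 137.0 CPM in control mice 1, 2, 3, 8 and 9 and at 143.8, 134.5, 106.5, 114.3 and 128.1 CPM in SNORA73 LNA mice 4, 6, 10, 11 and 12. Only mouse 4 reached the control range. Nop10 had a log2 fold change of -0.24 (SE 0.12, 95% interval -0.50 to 0.02, edgeR adjusted p = 0.407). Nhp2 had -0.10 (SE 0.14), Naf1 -0.16 (SE 0.26), Snu13 -0.04 (SE 0.13) and Fbl 0.05 (SE 0.15), none with an unadjusted p under 0.05. Polysome Nhp2 ranged from 43.9 to 49.3 CPM in control and from 31.6 to 52.9 CPM in SNORA73 LNA livers, and Fbl from 47.7 to 63.7 and from 46.9 to 78.0 CPM, so the SNORA73 LNA range enclosed the control range for both.

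In all, 6 of the 10 polysome estimates lay above 0 with a median of 0.17 (5 of the 10 by library totals alone, where the median of all genes was -0.17), while 51.4% of all genes lay below 0 and the median over all genes was -0.01. The 4 core H/ACA mRNAs thus ranged from -0.24 for Nop10 to 0.67 for Dkc1, and the 4 C/D mRNAs from -0.04 for Snu13 to 0.54 for Nop58. The spread between SNORA73 LNA mice was wider than between controls for every one of the 10 on polysomes, with coefficients of variation of 12% to 34% against 4.59% to 17.8%, and this held for 69.7% of all genes. In total RNA it was wider for 7 of the 10, against 63.7% of all genes, and narrower for Gar1, Naf1 and Nop10. In polysome RNA the median log2 fold change between LNAs over all genes moved from -0.06 among the 3086 genes with the shortest genomic spans to 0.09 among the 3086 with the longest. The spans of the snoRNP genes ran from 973 bp for Nop10 to 30622 bp for Naf1, with 13923 bp for Dkc1. The part of gene span and of the endothelial and proliferation markers in these differences was not tested.

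**Figure D2:**
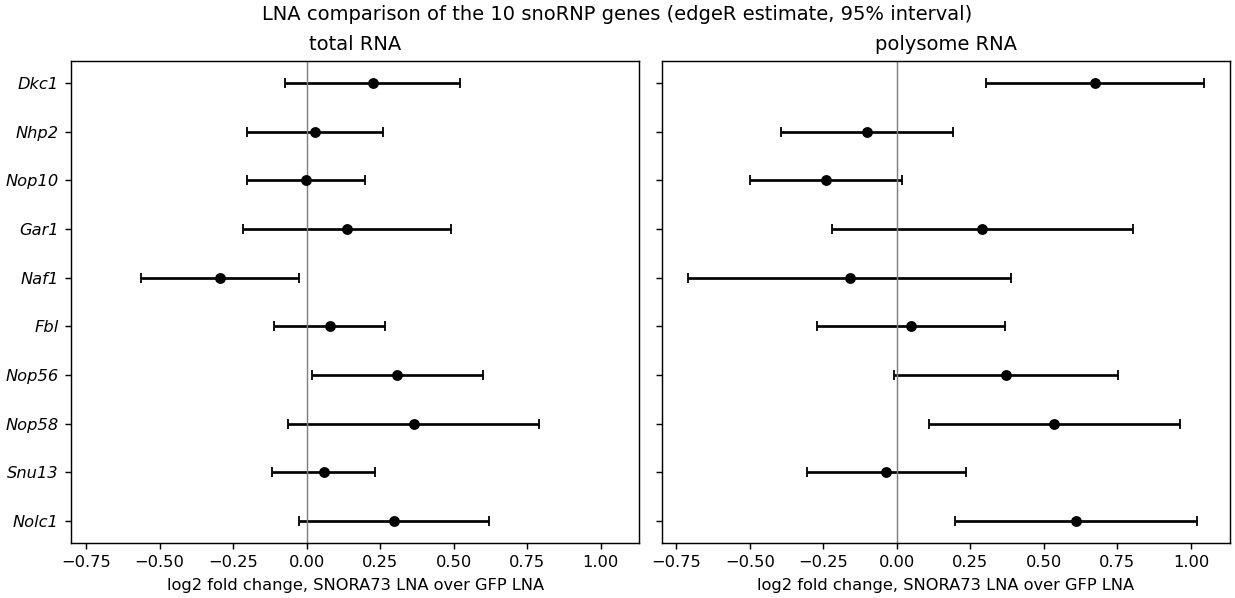
Log2 fold change of each snoRNP mRNA, SNORA73 LNA over GFP LNA, in total RNA (left) and polysome RNA (right), as edgeR estimates (points) with 95% intervals (bars), 5 mice per group. The polysome intervals of Dkc1 (0.30 to 1.04), Nolc1 (0.20 to 1.02) and Nop58 (0.11 to 0.96) do not include 0, and none of the 20 estimates passed the adjusted threshold.

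The next comparison asked whether the level of each mRNA on polysomes, relative to that in total RNA, differed with the LNA. Levels are relative to the other mRNAs of the same library, so they do not give the share of an mRNA on polysomes. Dkc1 had the largest difference among the snoRNP genes, and no gene of the 10 passed the test. Its log2 ratio of polysome to total RNA, each mouse against itself, was 0.19, -0.09, 0.03, 0.03 and 0.21 in control mice 1, 2, 3, 8 and 9 and 0.28, 0.45, 0.37, 0.67 and 0.78 in SNORA73 LNA mice 4, 6, 10, 11 and 12. The groups did not overlap, which held for 1.72% of the 13795 genes tested (0.819% with the SNORA73 LNA group higher) and, among the snoRNP genes, for Dkc1 alone. The means were 0.07 (SD 0.13, n = 5) and 0.51 (SD 0.21, n = 5).

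The interaction of RNA and LNA in edgeR gave Dkc1 a log2 difference of 0.45 (SE 0.23, 95% interval -0.02 to 0.92, unadjusted p = 0.0618, adjusted p = 0.9999). With the mouse as a block, which removes what both libraries of a liver share, it was 0.44 (SE 0.12, unadjusted p = 0.00273, edgeR adjusted p = 0.370). edgeR called 0 of the 10 without the block, where it called 0.00725% of all genes, and 0 at an unadjusted p under 0.05 against 2.91% of all genes. With the block it called 0, with 2 (Dkc1 and Nop10) at an unadjusted p under 0.05 against 8.03% of all genes, and limma-voom and DESeq2 without the block called 0. Nop10 differed in the opposite direction from Dkc1, by -0.24 (SE 0.14) without and -0.25 (SE 0.11, edgeR adjusted p = 0.610) with the block. Of the 10 interaction estimates 4 lay below 0, against 52.4% of all genes, and the remaining 8 ran from -0.12 for Nhp2 to 0.31 for Nolc1.

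Most snoRNP mRNAs were more abundant on polysomes than in the lysate, relative to other mRNAs. In control livers 8 of the 10 passed edgeR's test, 7 higher on polysomes (Nop10, Nhp2, Nolc1, Fbl, Nop56, Nop58 and Snu13) and 1 lower (Naf1), where 42.8% of all genes were called, 21.8% higher and 21% lower. In SNORA73 LNA livers 9 passed, the same 7 and Dkc1 higher and Naf1 lower, against 38% of all genes, 19.7% higher and 18.2% lower. Before adjustment, 8 had a p under 0.05 in control and 10 in SNORA73 LNA livers, against 50% and 46.4% of all genes. Naf1 was the only one of the 10 below 0 in either group, where 48.4% and 48.7% of all genes lay below 0. The median log2 difference of the 10 was 0.58 in control and 0.70 in SNORA73 LNA livers, where the median over all genes was 0.03 and 0.02. The 2 fractions did not overlap for 7 of the 10 in control and 5 in SNORA73 LNA livers, against 35% and 22.7% of all genes. Each library is scaled to its own total with a TMM factor, so these differences say how an mRNA stands among all mRNAs of the fraction. The median over all genes was 0.35 among the 3228 genes of shortest genomic span and -0.25 among the 3228 of longest span in control livers, and the part of gene span was not tested.

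Within the H/ACA core of control livers the difference ran from the highest of the 10 genes, Nop10, to a value near that of the average mRNA, Dkc1. Nop10 had a log2 difference of 1.35 (SE 0.10, edgeR adjusted p = 8.2e-09) in control livers and of 1.11 (SE 0.10, edgeR adjusted p = 1.1e-07) in SNORA73 LNA livers. Its log2 ratio per mouse ran from 1.19 to 1.49 in control livers and from 0.89 to 1.36 in SNORA73 LNA livers. In each of the 10 livers its scaled CPM on polysomes was thus at least 1.86 times that in total RNA. Nhp2, which binds the guide RNA and Nop10, had 1.10 (SE 0.12, edgeR adjusted p = 5.4e-07) and 0.97 (SE 0.12, edgeR adjusted p = 3.3e-06).

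Gar1 and Dkc1 had the lowest differences of the 4 core genes in both LNA groups. Gar1 had log2 differences of 0.30 (SE 0.21, edgeR adjusted p = 0.261) in control and 0.46 (SE 0.21, edgeR adjusted p = 0.0902) in SNORA73 LNA livers. With the mouse as a block the second became 0.41 (SE 0.16, edgeR adjusted p = 0.0454) and passed; with the block and without mice 9 and 10 it did not (0.43, edgeR adjusted p = 0.0983). In mouse 12 Gar1 had 70 counts on polysomes and a log2 ratio of -0.54, and without that mouse the value in the unblocked fit was 0.59 (edgeR adjusted p = 0.0142).

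Dkc1 had a log2 difference of 0.08 (SE 0.16, edgeR adjusted p = 0.728) in control livers and 0.52 (SE 0.16, edgeR adjusted p = 0.0135) in SNORA73 LNA livers. The second did not pass without mouse 12 (0.46, edgeR adjusted p = 0.0661). That Dkc1 passed in one LNA group and not in the other is not a difference between them, which is what the interaction tested.

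Naf1 was the one snoRNP mRNA that was lower on polysomes. Its log2 difference was -1.32 (SE 0.18, edgeR adjusted p = 6.7e-06) in control and -1.18 (SE 0.19, edgeR adjusted p = 4.2e-05) in SNORA73 LNA livers. Relative to other mRNAs, its level on polysomes was 0.40 and 0.44 of that in total RNA. The log2 ratio per mouse was -1.03, -1.59, -1.46, -1.20 and -1.31 in control mice 1, 2, 3, 8 and 9 and -0.74, -0.59, -1.51, -1.58 and -1.73 in SNORA73 LNA mice 4, 6, 10, 11 and 12. All 10 livers lay below 0, and the SNORA73 LNA mice fell on both sides of the control range. The SD was 0.53 in SNORA73 LNA and 0.22 in control livers.

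The C/D mRNAs were all higher on polysomes, fibrillarin most. Fbl (chr7:28168893-28179269) had log2 differences of 0.86 (SE 0.12, edgeR adjusted p = 9.5e-06) in control and 0.83 (SE 0.12, edgeR adjusted p = 1.9e-05) in SNORA73 LNA livers, and its ratio per mouse ran from 0.57 to 1.19. Nop56 had 0.62 (SE 0.16) and 0.68 (SE 0.16), and Snu13 (chr15:82041345-82047598) had 0.51 (SE 0.10) and 0.42 (SE 0.10), each with an edgeR adjusted p of 0.00433 or less. Snu13, whose protein also serves in the spliceosome, varied least between mice of the 10, with an SD of 0.14 over 10 ratios.

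Nop58 had 0.54 (SE 0.21, edgeR adjusted p = 0.0415) in control and 0.71 (SE 0.21, edgeR adjusted p = 0.0102) in SNORA73 LNA livers. Its call in control livers was near the threshold: it was lost without any one of control mice 1, 2, 3, 8 or 9 or SNORA73 LNA mouse 6 (edgeR adjusted p 0.0510 to 0.136), and kept with the mouse as a block (0.53, edgeR adjusted p = 0.000156). In all 10 livers the ratio of Nop58 was above 0, from 0.36 to 0.96. Nolc1 had 0.96 (SE 0.18, edgeR adjusted p = 0.000231) and 1.27 (SE 0.18, edgeR adjusted p = 1.6e-05), and its highest ratio, 1.79, was that of mouse 11, against 0.87 to 1.12 in control livers.

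Placed in order of the mean log2 ratio over 10 mice, the genes ran Nop10 (1.23), Nolc1 (1.10), Nhp2 (1.03), Fbl (0.84), Nop56 (0.64), Nop58 (0.63), Snu13 (0.46), Gar1 (0.34), Dkc1 (0.29) and Naf1 (-1.27). Of the 9 neighbouring pairs, 2 passed an exact test over mice. The same 10 mice decided which genes are neighbours, so the p-values below are no independent support for the order. Fbl exceeded Nop56 by 0.20 (SD 0.22), higher in 9 of 10 mice (two-sided exact sign-flip permutation test, p = 0.00977, adjusted over 9 pairs 0.0439). Dkc1 exceeded Naf1 by 1.57 (SD 0.50), higher in 10 of 10 mice (the same exact test, p = 0.00195, the smallest 10 mice can give, adjusted 0.0176). For the other 7 pairs the exact p was 0.0957 or more, so their order is not settled by these mice. In control mice alone 8 of the 9 pairs kept this order and in SNORA73 LNA mice alone 6, where Nolc1 came first and Dkc1 moved above Snu13 and Gar1. Each group is part of the 10 mice that set the order, so these counts are no independent support for it either.

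**Figure D3:**
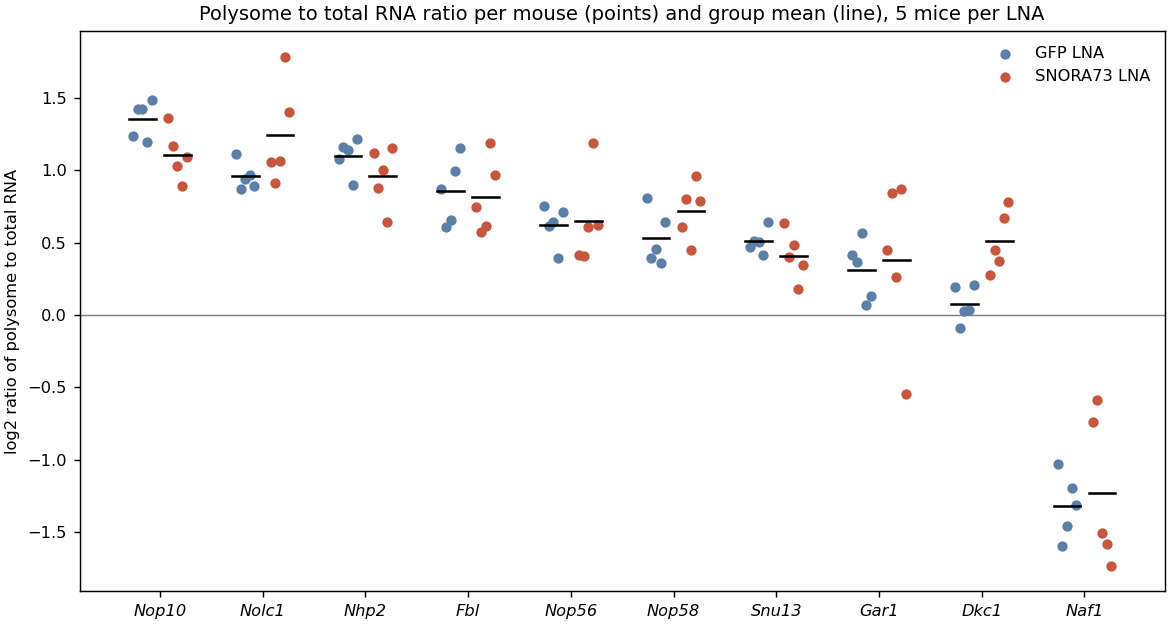
Log2 ratio of polysome to total RNA for each snoRNP mRNA, 1 point per mouse for GFP LNA (blue) and SNORA73 LNA (red), with the mean of each group of 5 as a line and genes in order of the mean over 10 mice. 7 of the 10 genes lie above 0 in all 10 mice, Naf1 lies below 0 in all 10, and the groups do not overlap for Dkc1.

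The ratio was above 0 in all 10 livers for 7 of the 10 genes, where this held for 20% of all genes. The exceptions were Naf1, Dkc1, with 9 of 10 livers above 0, and Gar1, also with 9 of 10. Among the 13795 genes, the mean ratios of Nop10, Nolc1, Nhp2 and Fbl were above those of 98.2%, 97.1%, 96.3% and 93.3% of genes. Nop56 and Nop58 stood at 87.3% and 87.0%, Snu13, Gar1 and Dkc1 at 79.6%, 72.8% and 69.5%, and Naf1 at 5.22%. The quartiles of all genes were -0.48 and 0.38.

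**Figure D4:**
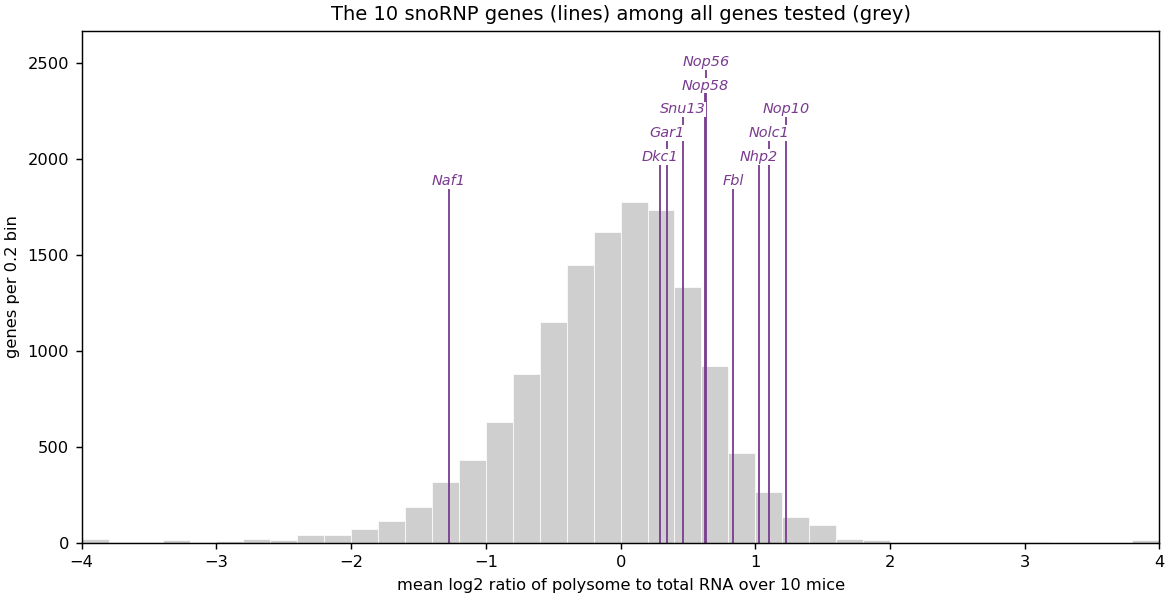
Mean log2 ratio of polysome to total RNA over 10 mice for all 13795 genes tested (grey bars, genes per bin of 0.2, with genes beyond the axis counted in the outermost bins) and for the 10 snoRNP genes (lines, with staggered heights for legibility only). 9 lines lie to the right of the median of all genes (-0.01), and Naf1 lies to the left at -1.27.

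The snoRNP mRNAs were also compared across livers within each group. After the mean of its group was subtracted from each library, Nop56, Nolc1, Nop58 and Gar1 followed the mean of the other members with Pearson correlations of 0.79, 0.77, 0.75 and 0.68 over 20 libraries. Fbl had 0.44, Dkc1 0.20, Naf1 -0.07, Nhp2 -0.10 and Snu13 -0.12, and Nop10 ran against the others at -0.53. These points are not independent, since the 20 libraries come from 10 mice, 2 each, and share the scaling of their library. In total RNA alone Nolc1 and Nop56 reached 0.93 and 0.87, and in polysome RNA alone 0.67 and 0.74. Nhp2 had opposite signs, 0.50 in total and -0.45 in polysome RNA, and Nop10 was negative in both (-0.48 and -0.57).

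Nop58 deviated by 0.65 in mouse 10 and by -0.50 in mouse 12 in total RNA, Nolc1 by 0.40 and -0.46, and Nop56 by 0.33 and -0.43, all on the log2 scale. On polysomes mouse 11 was highest of its group for Nop56 (0.59), Nolc1 (0.63), Nop58 (0.50), Dkc1 (0.60), Gar1 (0.48) and Fbl (0.42). The same mouse was lowest for Nhp2 (-0.45), Naf1 (-0.44) and Snu13 (-0.37). Mouse 12 was lowest for Gar1 (-1.05), Nop56 (-0.45) and Nop58 (-0.43). The mean of all 10 genes deviated by 0.21 in total RNA of mouse 10 and by -0.19 in that of mouse 12, against -0.08 to 0.10 in control mice.

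**Figure D5:**
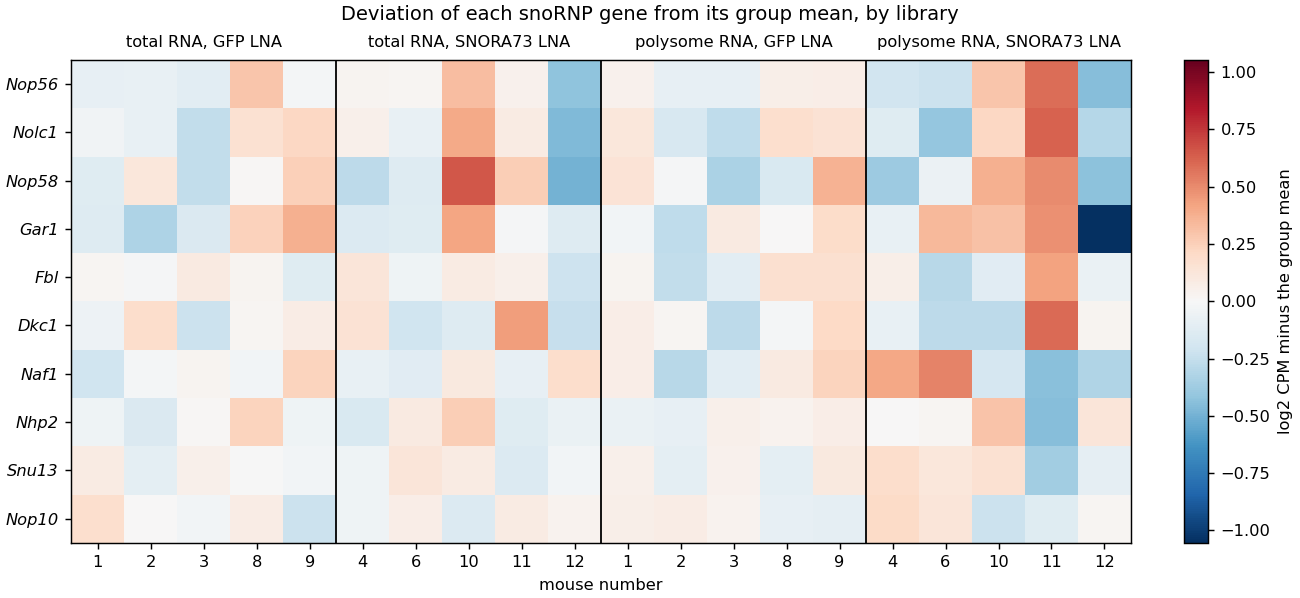
Log2 CPM of each snoRNP mRNA minus the mean of its group, 1 column per library in the 4 groups of 5 mice, with genes ordered by their correlation with the other members. Nop56, Nolc1 and Nop58 are above their means (red) in both libraries of mice 10 and 11 and below them (blue) in both of mouse 12, while Nop10 shows no such pattern.

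Outside the 10, the genes whose deviations followed their mean most closely over the same 20 libraries were Fubp1 (Pearson r = 0.93), Ddx21 (0.93), Pbdc1 (0.92), Slc7a1 (0.90) and Sarnp (0.89). They were picked as the 5 highest of all genes tested, and the values carry the same dependence between libraries. Ddx21 is a nucleolar RNA helicase that acts in ribosomal RNA transcription and processing.

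Introns of some snoRNP genes carry snoRNA genes. RefSeq places 5 within the span of Nop56, 4 within Nop58 and 1 within Dkc1, and none within the other 7. Of the 6 of these 10 snoRNAs that are in the table, none had more than 2 counts in any library, so the guide RNAs inside these host genes cannot be read from libraries of polyadenylated RNA.

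Other genes of the pathway were counted in 5 lists of 61 genes in all, none of which holds a member. None of the 61 passed edgeR's adjusted threshold between LNAs in total or polysome RNA, and 10 of 61 in total RNA and 11 of the 60 tested in polysome RNA had an unadjusted p under 0.05, against 8.65% and 13.4% of all genes. The directions of the lists are to be read against 48.3% of all genes below 0 in total RNA and 51.4% on polysomes, and library totals alone moved the median of all genes to -0.14 and -0.17. Of the 8 snoRNP assembly factors, 6 lay above 0 in total RNA (median 0.17) and 4 on polysomes (median 0.03). Znhit6, which takes part in assembling C/D particles, had the largest log2 fold change of the list, 0.77 (SE 0.15, edgeR adjusted p = 0.199) in total RNA and 1.30 (SE 0.29, edgeR adjusted p = 0.106) on polysomes. Rpap3, a subunit of the R2TP chaperone complex, had 0.47 (SE 0.27) and 0.42 (SE 0.34).

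All 11 genes of snoRNA maturation and trafficking lay above 0 in total RNA (median 0.14) and 8 on polysomes (median 0.10). In total RNA their largest estimates were 0.23 (SE 0.15) for Exosc10, the nuclear exosome nuclease, and 0.20 (SE 0.11) for Phax, the export adaptor of capped small RNAs. On polysomes these genes had 0.10 (SE 0.16) and 0.16 (SE 0.13), and the estimates of the list ran from -0.22 for Parn to 0.53 for Tent4b. The list for the SNORA73 and U3 particles and processing of the ribosomal RNA precursor held 18 genes. Of these, 16 lay above 0 in total RNA (median 0.13) and 14 on polysomes (median 0.25). In total RNA Heatr1 had 0.40 (SE 0.13) and Kri1 0.39 (SE 0.13). Both are early factors of the small ribosomal subunit.

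The 12 pseudouridine synthases that work without a guide RNA were split, with 5 above 0 in total RNA (median -0.03) and 5 of the 11 tested on polysomes (median -0.02). Pus7 had a log2 fold change of 0.30 (SE 0.16) and Rpusd1 0.37 (SE 0.37) in total RNA. Trub2, named after its values were seen, was the one gene of this list with an unadjusted p under 0.05 in each RNA, with -0.30 (SE 0.12, unadjusted p = 0.0354, edgeR adjusted p = 0.528) in total RNA and -0.58 (SE 0.17, unadjusted p = 0.00481, edgeR adjusted p = 0.195) on polysomes. Of the 12 genes of RNA polymerase I and nucleolar growth, 7 lay above 0 in total RNA (median 0.01) and 5 on polysomes (median -0.04). Polr1a, the largest subunit of the polymerase, had 0.47 (SE 0.15) in total RNA and 0.78 (SE 0.26, edgeR adjusted p = 0.233) on polysomes, and Myc -0.55 (SE 0.68) and -0.66 (SE 0.71). Ncl, which encodes nucleolin and was singled out after its values were seen, had 0.43 (SE 0.14) in total RNA and 1.13 (SE 0.26, edgeR adjusted p = 0.113) on polysomes, with means of 505 CPM in SNORA73 LNA and 230 CPM in control livers.

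Each of the 5 lists also held genes that differed between polysomes and total RNA. In control livers 21.8% of all genes were called higher on polysomes and 21% lower. Of 8 assembly factors 3 were called higher and 0 lower, and of 11 maturation factors 6 and 1. Of the 18 genes of the SNORA73 and U3 list 7 were called higher and 2 lower. The counts were 3 and 1 of 12 stand-alone synthases, and 3 and 1 of 12 genes of the polymerase I list. The median log2 differences were 0.44, 0.37, 0.38, 0.15 and 0.08 in that order. Phax had 0.65 (SE 0.12) and Znhit6 0.997 (SE 0.25), both higher, and Heatr1 0.18 (SE 0.16), which did not pass edgeR's adjusted threshold. In SNORA73 LNA livers, where 19.7% of all genes were called higher and 18.2% lower, the counts higher and lower were 3 and 0, 5 and 0, 10 and 0, 2 and 1, and 4 and 0.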

How the data were processed

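Polyadenylated RNA of input lysate and of polysome fractions from 10 livers was sequenced as 100 bp paired, reversely stranded reads. The authors trimmed reads with fastp (Phred at least 15), removed reads aligning to ribosomal RNA, quantified transcripts with kallisto 0.46.2 against Ensembl 102 (GRCm38) and summed them to genes with tximport; kallisto's strand and index settings are not given in the sources used here. Each deposited value is an estimated count of 1 gene in 1 library, without scaling, which was rounded to a whole number here. A pseudoaligner divides reads between similar transcripts, so members with processed pseudogenes carry that uncertainty.

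Genes above 0.5 CPM in at least 4 libraries of a fit were kept, as in the study's methods. Differences were tested with edgeR 4.0.16 (quasi-likelihood, TMM scaling, R 4.3.3), with p-values adjusted by Benjamini-Hochberg over all genes tested and a threshold of 0.05. LNA groups were compared within each RNA. Polysome and total RNA, and the interaction of RNA and LNA, were tested in 1 fit of 20 libraries without a mouse term. CPM values are scaled within each RNA, and the log2 ratios per mouse come from scaling all 20 libraries together, with a prior count of 0.5. Both libraries of a mouse come from the same liver, so mouse numbers pair them; their deviations from the group means correlated at 0.10 to 0.51. Alternatives were limma 3.58.1 (voom), DESeq2 1.42.0, other scalings and filters, the mouse as a block, leaving out each mouse, and leaving out mice 9 and 10 together, since the study left out 1 unnamed mouse per group; that pair was taken from earlier results of these data. Neighbours in the order of ratios were compared by exact sign-flip tests. The fits were tested on simulated data.

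The members and gene lists were chosen with earlier results of these data known. The named genes are all members, from each list the 2 with the largest absolute log2 fold change in total RNA where none passed, and the 5 genes most correlated with the members' mean; Ncl, Parn, Tent4b and Trub2 were named after their values were seen. Levels of different members were not compared, since that needs transcript lengths, which were not used here. Depth sets the precision: Naf1 had 18 to 208 counts per library, Gar1 70 to 359, and each of the other 8 at least 330. Figures were drawn with matplotlib 3.10.9 from tables made in Python 3.11.15 with pandas 2.3.3.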

Additional observations from a re-analysis of the deposited data

Results flagged for a closer look

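Of 60 groups of 5 mice tested for a value far from the others (10 genes in 4 groups of libraries, and their ratios in 2 groups), 3 held one, and chance gives about 1 in 20. Gar1 in total RNA of SNORA73 LNA mouse 10 was at 10.7 CPM, where the other 4 mice lay between 7.18 and 7.81 CPM. Nop56 in total RNA of control mouse 8 was at 20.2 CPM, where the other 4 controls lay between 15.2 and 16.5 CPM. The log2 ratio of polysome to total RNA of Nop56 was 1.19 in SNORA73 LNA mouse 11 and between 0.41 and 0.62 in the other 4. Mouse 8 bears on the comparison of Nop56 between LNAs in total RNA: over 10 fits that each omit 1 mouse, its estimate lay between 0.22 and 0.40 on the log2 scale, and it did not pass edgeR's adjusted threshold in any of these 10 fits.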

How the results depend on the processing

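Beside the count of 0 on polysomes between LNAs, DESeq2 and the single fit of all 20 libraries each called 1 of the 10 snoRNP mRNAs, Dkc1. With the mouse as a replicate block, 8 of the 10 were called between polysome and total RNA in control and 10 in SNORA73 LNA livers (Gar1 gained, 0.41, and lost again without mice 9 and 10), against 56.1% and 51.1% of all genes, and the block changed no other call. The order of the ratios kept 8 of 9 neighbouring pairs in control mice alone and 6 in SNORA73 LNA mice alone, each a part of the mice that set the order. Scaling by library totals alone moved the median of all genes to -0.14 in total RNA and -0.17 in polysome RNA between LNAs, and turned total RNA Nhp2 to -0.12, Gar1 to -0.012, Fbl to -0.068 and Snu13 to -0.088, and polysome Fbl to -0.11; relative to those medians, the 5 estimates stayed above. Nop10 in total RNA became 0.0024 with limma-voom. Without mice 9 and 10, Nhp2 in total RNA became -0.052 and the interaction of Fbl 0.11 (0.10 with the block as well, added after seeing the data). The call of Nop58 in control livers was lost with DESeq2's size factors, above 1 CPM in every library and without mice 9 and 10 (edgeR adjusted p = 0.0510, 0.0641 and 0.0579).

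With each mouse left out, estimates that changed sign ranged from -0.061 to 0.040 for Nop10 and from -0.045 to 0.081 for Nhp2 in total RNA. On polysomes they ranged from -0.060 to 0.12 for Fbl, from -0.17 to 0.011 for Nhp2 and from -0.083 to 0.060 for Snu13, and in the interaction from -0.044 to 0.27 for Naf1, from -0.14 to 0.043 for Fbl and from -0.098 to 0.13 for Nop56. Over all values with a mouse left out, 476 kept direction and side of the threshold, 16 changed sign, 7 lost a call and 1 gained one. The cause of these changes was not tested.

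The number of genes called between LNAs depended on the setting. In total RNA it was 4, against 68 with DESeq2, 13 with no filter on low counts, 59 without control mouse 9 and 97 without mice 9 and 10. In polysome RNA it was 2, against 282 with DESeq2, 317 in the single fit, 72 with no filter, 31 above 1 CPM in every library and 31 without mice 9 and 10. With 5 mice per group the 95% intervals allow folds of 0.678 to 1.73 for the snoRNP mRNAs in total RNA and of 0.610 to 2.06 on polysomes, and Naf1, with 18 to 64 counts on polysomes, had the widest interval there. The planned order of level among the genes was not run.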
